A study of Macaca mulatta with 6 samples.

Results

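TRIM genes encode the tripartite motif proteins, and 42 of them were measured in rhesus macaque luteal cells, of 14132 genes that carried a name on the array. Members were the genes whose symbol is TRIM followed by a number, taken from probe sets annotated with 1 symbol. Where a gene had several probe sets (25 of the 42), the probe set with the highest mean over all 6 arrays stood for it, and the 42 genes had 82 probe sets in all. The annotated gene number of 41 members still belongs to the same symbol in the current RefSeq gene table. That of TRIM16 does not, so its identity is uncertain. A further 18 numbered TRIM symbols of that table, among them TRIM6, TRIM24, TRIM26, TRIM33 and TRIM34, were not analysed here.

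Luteal cells were dispersed from the macaque corpus luteum, the progesterone-producing gland left in the ovary after ovulation, 12 days after the surge of luteinizing hormone. One group of 3 cultures received 0.1% DMSO, the vehicle, and the other group of 3 received T0901317 at 1 µM. T0901317 is a synthetic ligand that activates liver X receptors (LXRs), sterol-sensing transcription factors whose target genes are the subject of the study. Treatment lasted 24 h in serum-free medium on fibronectin, starting when the cells were plated. The replicates are described as biological and paired across the groups, and the sources used here do not say if both cultures of a pair came from 1 animal.

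A typical TRIM protein has a RING domain, B-box zinc fingers and a coiled coil. The RING domain recruits a ubiquitin-conjugating (E2) enzyme, which makes the protein a ubiquitin ligase, and a variable C-terminal domain, often PRY-SPRY, selects the target. Many family members are induced by interferon and either block viruses directly or tune the sensors that detect viral nucleic acids. Others repress transcription, organise the cytoskeleton or act in muscle.

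The values are log2 signals, 1 array per culture. Array medians spanned 5.54 to 5.71. The reference for dim signal was 4.63, the 95th percentile of the mean signal of 42 control probe sets for Bacillus transcripts, and the share of probe sets above it was 68.8% to 74.1% per array. The signal of a probe set depends on its sequence as well as on its transcript, so levels are not ranked between genes. The steroidogenic gene STAR read 10.97, 11.48 and 10.54 in DMSO replicates 1, 2 and 3. Of 10 luteal markers 5 were measured, STAR among them, and CYP11A1 and LHCGR were not analysed here. The median of the 5 per array was 7.5 to 8.51 in DMSO and 7.4 to 8.15 in T0901317. Macrophage markers (10 of 12 measured, none below the dim reference) had a median signal per array of 7.11 to 8.43 in DMSO and 7.07 to 8.66 in T0901317. For T and natural killer cell markers (5 of 9 measured) the median per array was 9.29 to 11.1 in DMSO and 9.14 to 11 in T0901317. Of the 5, CD7 was below the dim reference, and the others were GNLY, NKG7, GZMB and KLRD1. The T cell genes CD3D, CD3E, CD3G and CD2 were not analysed here. In such bulk RNA fewer cells of a type and less RNA per cell cannot be told apart.

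No TRIM gene rose and none fell after T0901317 at an adjusted p under 0.05 (limma with the replicate number as a block, Benjamini-Hochberg adjustment over 52707 probe sets). Among all named genes, 0.113% rose and 0.0637% fell by the same rule. Changes are given as T0901317 minus DMSO on the log2 scale, and those of the 42 genes ran from -0.26 for TRIM5 to 0.24 for TRIM55. Their median was -0.026, beside -0.021 for all named genes. All 42 limma confidence intervals (95%) lay within a 1.5-fold change in either direction, and so did those of 97.6% of named genes. The outermost bounds of the 42 were -0.51 and 0.56. These intervals, and the SEs below, rest on 2 residual degrees of freedom and a prior worth 9.42, drawn from all probe sets. They do not measure the spread of the 3 pairs of a gene alone. One gene, TRIM5, reached an unadjusted p under 0.05, which is 2.38% of the family, beside 3.73% of named genes. The same sign in all 3 pairs was seen for 9 TRIM genes, beside 25.2% of named genes. TRIM59 was above 0 in each pair, and TRIM5, TRIM25, TRIM37, TRIM54, TRIM58, TRIM60, TRIM65 and TRIM69 were below 0. In 1 gene, TRIM60, the arrays of the groups did not overlap, beside 1.9% of named genes, and all 6 of its values lay below the dim reference.

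**Figure D1:**
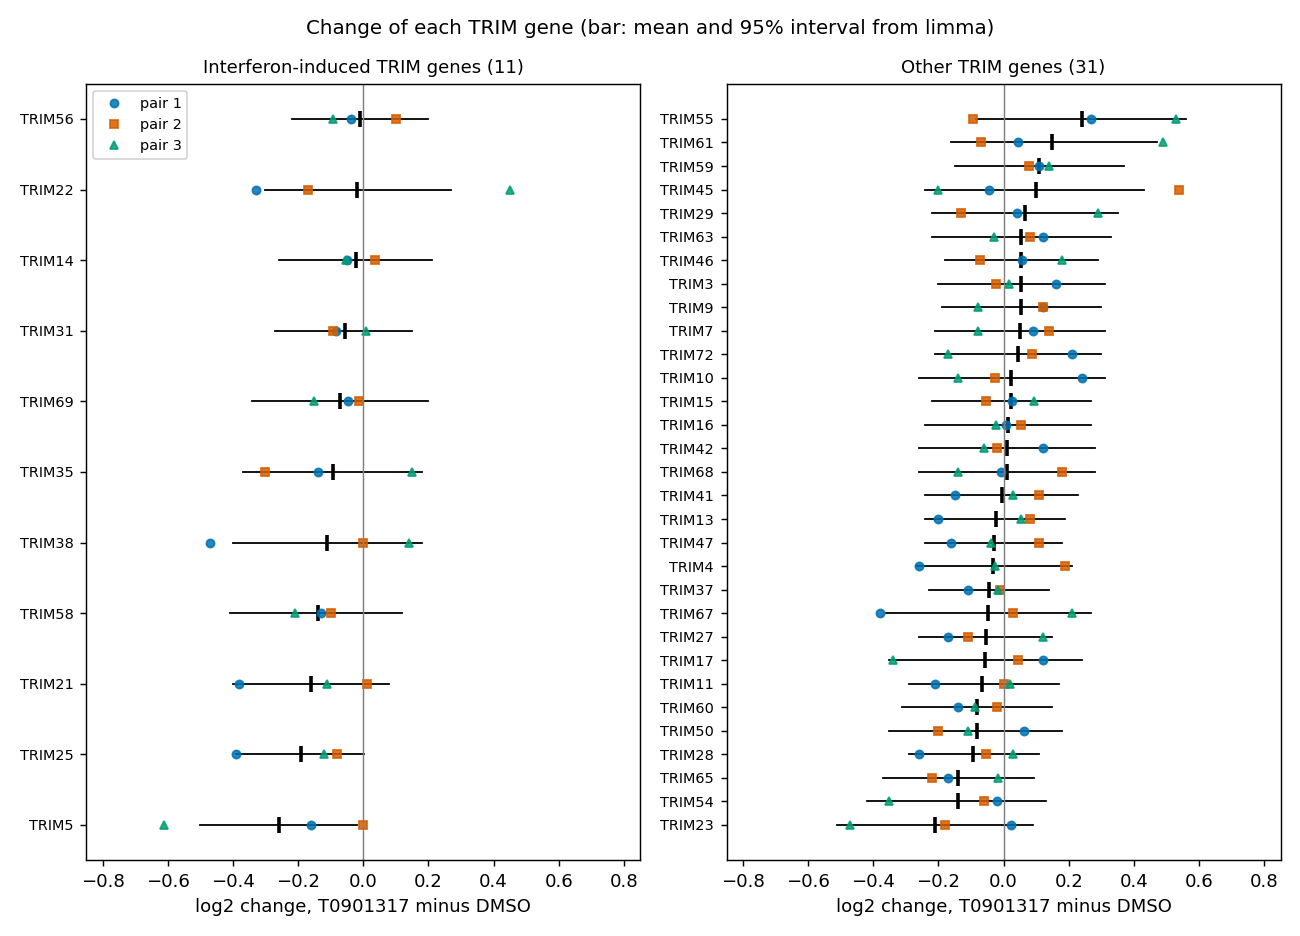
Difference between T0901317 and DMSO (log2) for each of the 42 TRIM genes, with the 3 pairs as symbols and the fitted mean with its 95% interval as a bar, the 11 interferon-induced genes set apart from the other 31. Means run from -0.26 (TRIM5) to 0.24 (TRIM55), and the TRIM5 interval is the only one that does not reach 0.

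The interferon-induced members measured were TRIM5, TRIM14, TRIM21, TRIM22, TRIM25, TRIM31, TRIM35, TRIM38, TRIM56, TRIM58 and TRIM69, 11 of the 14 on the list. All 11 had a fitted change below 0, beside 58.6% of named genes. TRIM22 and TRIM56 turned above 0 under quantile or cyclic loess normalization, and other members under other settings. The median change of the 11 was -0.094, and the range was -0.26 to -0.01. The other 31 members had a median of 0.012, with 15 below 0 and 16 above. In mean signal 6 of the 31 lay below the dim reference, and 0 of the 11. The 25 others above that reference had a median of -0.0032, with 13 below 0, beside 61.4% of named genes above it. By pair, the median of the interferon-induced members was -0.14, -0.014 and -0.094, and 11, 7 and 7 of the 11 were below 0. For the other members it was 0.024, -0.011 and -0.023, and for all named genes -0.067, -0.014 and 0.014. The difference between the medians of the interferon-induced and the other members was thus -0.16 in the first pair, -0.0034 in the second and -0.072 in the third. No p is given for it, since the lists were chosen with earlier results known. In the same fit no marker of another cell type was called. The median change was -0.24 for pericyte and smooth muscle markers (4 of 4 below 0), -0.20 for neutrophil and blood markers (6 of 7), -0.12 for T and natural killer cell markers (5 of 5), -0.074 for B cell markers (2 of 3), -0.073 for fibroblast markers (5 of 6) and -0.015 for macrophage markers (6 of 10). Endothelial markers had a median of 0.12 (2 of 9 below 0), and luteal markers one of -0.18 (4 of 5 below 0). Their part in the difference was not tested.

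**Figure D2:**
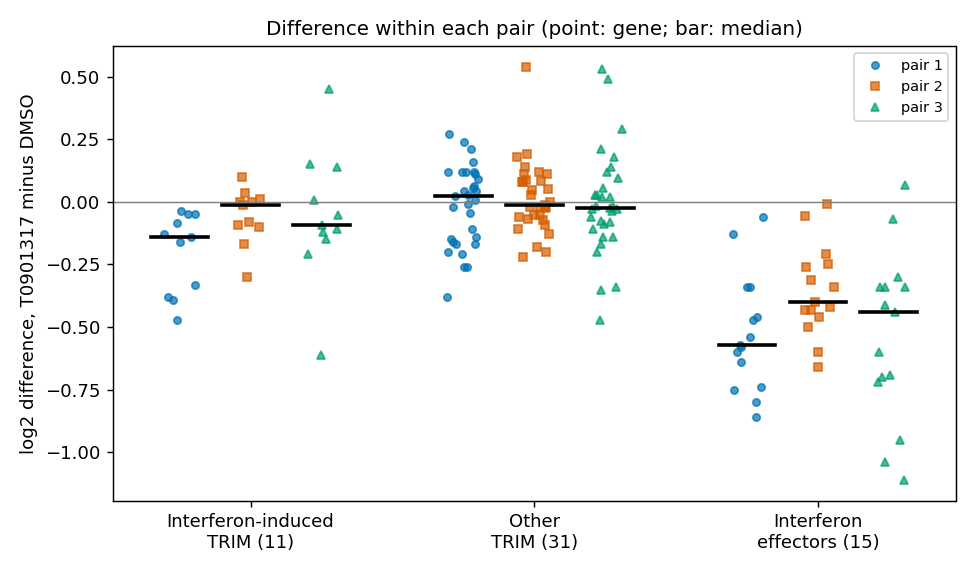
Log2 difference (T0901317 minus DMSO) of every gene in each replicate pair, with points for genes and bars for medians, for 11 interferon-induced TRIM genes, 31 other TRIM genes and 15 interferon-induced effector genes. The effector medians are -0.57, -0.40 and -0.44, and those of both sets of TRIM genes lie nearer 0, at -0.14 to 0.024.

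TRIM5, the restriction factor that recognises the capsids of incoming retroviruses, read 10.13, 8.77 and 10.41 in the DMSO cultures of replicates 1, 2 and 3 and 9.97, 8.77 and 9.80 with T0901317. The groups overlapped, and both cultures of replicate 2 were the lowest. Its change was -0.26 ± 0.11 (limma SE), with an unadjusted limma p of 0.0376 and an adjusted p of 1. The SD of the 3 pair differences was 0.316. The change came mainly from 1 pair, since the pairs differed by -0.16, -0.00082 and -0.61, and without replicate 3 it was -0.082. The 3′ minus 5′ signal of control transcripts, a sign of RNA quality, was 1.89 in DMSO and 1.30 with T0901317 in that pair, and with this signal as a covariate the change was -0.14. A second TRIM5 probe set changed by -0.35 (limma, unadjusted p of 0.029), and the remaining ones by -0.0041 and -0.024.

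TRIM25, the ligase best known for activating the RNA sensor RIG-I, read 9.70, 9.22 and 9.79 in DMSO and 9.31, 9.13 and 9.67 with T0901317. Each T0901317 culture was below its partner, by 0.39, 0.082 and 0.12, and the groups overlapped. The change was -0.19 ± 0.0902 (SE; limma, unadjusted p of 0.0528, adjusted p = 1). Its 4 probe sets did not move alike, with changes of -0.19, -0.25, -0.0009 and 0.063, of which the second had an unadjusted limma p of 0.0165. Without replicate 1 the change was -0.10.

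TRIM22, an interferon-induced ligase with antiviral activity, lies next to TRIM5 in the RefSeq gene table with no protein-coding gene between them. It read 9.13, 9.31 and 8.59 in DMSO and 8.80, 9.13 and 9.04 with T0901317. Replicate 2 was its highest DMSO culture, where TRIM5 had its lowest. In the third pair TRIM22 was 0.45 higher with T0901317, where TRIM5 was 0.61 lower. The mean change of TRIM22 was -0.018 ± 0.131 (SE), and the sign differed between pairs (-0.33, -0.17 and 0.45).

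**Figure D3:**
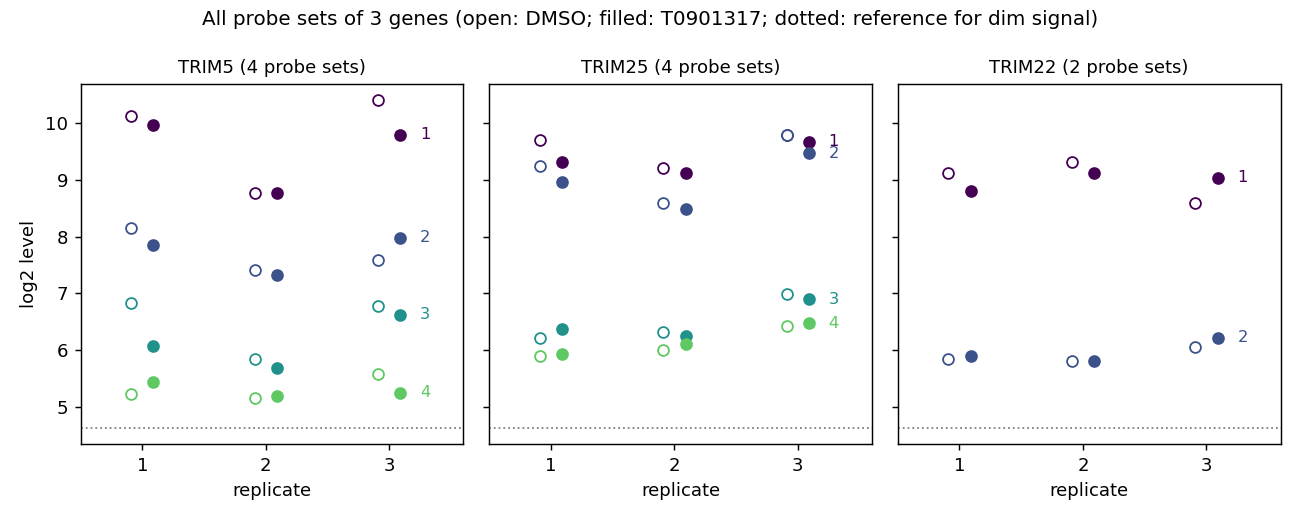
Log2 level of all probe sets of TRIM5 (4), TRIM25 (4) and TRIM22 (2) by replicate, numbered from the highest mean down, with DMSO open, T0901317 filled and the dim reference of 4.63 dotted. All lie above the reference, and the second TRIM22 probe set, with a change of 0.073, stays near 6 where the first lies between 8.59 and 9.31.

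TRIM21, the cytosolic antibody receptor that sends antibody-coated virus for degradation, read 8.0, 7.68 and 7.94 in DMSO and 7.62, 7.70 and 7.83 with T0901317. Most of its mean change of -0.16 ± 0.109 (SE) lay in the first pair, and without replicate 1 it was -0.05. TRIM38, a regulator of sensor and NF-κB signalling, showed the same pattern: it differed by -0.47 in the first pair, 0 in the second and 0.14 in the third. A second TRIM38 probe set changed by 0.31, against -0.11 for the brighter one. TRIM56, a ligase of the antiviral response, changed by -0.01 ± 0.0978 (SE). TRIM14, an adaptor of mitochondrial antiviral signalling that lacks a RING domain, changed by -0.022 ± 0.107 (SE), and its other probe sets by 0.079 and -0.11. The probe sets that stood for TRIM14 and TRIM38 have names that mark probes not unique to 1 transcript. With unmarked probe sets used where available, 9 of the 11 interferon-induced members were below 0, beside 58.2% of named genes. TRIM14 and TRIM38 were above.

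TRIM58, a ligase of late red cell development that binds dynein, read 6.76, 5.89 and 5.20 in DMSO and 6.63, 5.79 and 4.99 with T0901317. Replicates stood in the same order in both groups, and each T0901317 culture was slightly below its partner. The change was -0.14 ± 0.12 (SE), and its other probe sets changed by 0.09 and -0.22. TRIM35 changed by -0.094 ± 0.127 (SE), TRIM69 by -0.071 ± 0.122 (SE), and TRIM31, a ligase for the adaptor MAVS, by -0.056 ± 0.0957 (SE). TRIM31 rests on 1 probe set at a mean of 8.08 whose name marks probes shared between transcripts, while its other probe sets had means of 4.54, 4.20 and 3.01, all below the dim reference.

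Among the other members, all 4 muscle genes were measured. They are the muscle ring finger ligases TRIM63, TRIM55 and TRIM54, which act at the sarcomere, and TRIM72, which acts in membrane repair. TRIM55 read 4.61, 4.94 and 5.34 in DMSO and 4.88, 4.85 and 5.87 with T0901317. That change, 0.24 ± 0.146 (SE), was the highest of the family, yet the pairs differed in sign and 1 array was below the dim reference. Without replicate 3 it was 0.09. TRIM63 changed by 0.055, TRIM72 by 0.045 and TRIM54 by -0.14. Skeletal muscle markers (4 of 8 measured) had a median signal of 5.30 to 5.33 in DMSO and 5.27 to 5.44 in T0901317, and 1 of the 4 was below the dim reference.

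TRIM28, the corepressor that KRAB zinc finger proteins recruit to silence transposable elements, was the only measured member of the PHD-bromodomain group. It read 9.67, 9.10 and 8.68 in DMSO and 9.42, 9.05 and 8.71 with T0901317, a change of -0.093 ± 0.0913 (SE) that was -0.012 without replicate 1. Of the proteins that work with it 8 of 10 were measured, and none rose or fell. The changes of largest size there were -0.14 for the histone methyltransferase SETDB1, -0.10 for MORC3 and -0.087 for ATF7IP.

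TRIM23, which ends in an ARF GTPase domain, changed by -0.21 ± 0.138 (SE) on the probe set that stood for it, whose name marks shared probes, and by -0.039 and 0.13 on the others. It read 5.31, 5.80 and 5.03 in DMSO and 5.34, 5.62 and 4.55 with T0901317, and the pairs differed by 0.024, -0.18 and -0.47. TRIM37, a ligase of centriole assembly and peroxisomes, changed by -0.045, and TRIM45, with a filamin domain, by 0.10. Of the membrane-anchored ligases, TRIM13 of the endoplasmic reticulum changed by -0.023. TRIM59 changed by 0.11 on the probe set that stood for it, and a second one by 0.32 (limma, unadjusted p of 0.0267), both below the dim reference.

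TRIM9, TRIM46 and TRIM67, ligases with a microtubule-binding COS box that are best known from neurons, changed by 0.053, 0.054 and -0.048. All 6 TRIM9 values were below the dim reference. TRIM3, the single measured member with NHL repeats, changed by 0.053. Of the members without a RING domain, TRIM16 changed by 0.013 and TRIM29 by 0.067. In total 6 members had a mean below the dim reference (TRIM9, TRIM42, TRIM59, TRIM60, TRIM61 and TRIM65), among them TRIM61 with a change of 0.15 that rests on 1 array at 4.70, the rest lying between 4.17 and 4.25.

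The remaining members had changes between -0.14 and 0.05. They include TRIM65, a ligase for the sensor MDA5, at -0.14, TRIM50 at -0.082, TRIM11 at -0.065, TRIM17 at -0.058 and TRIM27, a ligase of endosomal sorting, at -0.053. TRIM4 stood at -0.032, TRIM47 at -0.028 and TRIM41 at -0.0032, while TRIM7 stood at 0.05, TRIM10 at 0.024, TRIM15 at 0.023, and TRIM42 and TRIM68 at 0.012. Several members are direct neighbours in the RefSeq gene table, besides TRIM5 and TRIM22: TRIM7 and TRIM41, TRIM10 and TRIM15, TRIM11 and TRIM17, TRIM47 and TRIM65, and TRIM60 and TRIM61. In none of these 6 pairs did either gene pass the test of treatment. TRIM47 and TRIM65 were both lowest in replicate 3, with 8.04 and 2.39 in DMSO, but all 6 TRIM65 values were below the dim reference.

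Of the 82 TRIM probe sets, 4 had an unadjusted limma p under 0.05, which is 4.88%, beside 3.62% of the 24956 probe sets with 1 symbol. They were the probe set that stood for TRIM5, a second TRIM5 probe set, a TRIM25 probe set and a TRIM59 probe set. None passed after adjustment, and the remaining TRIM5 probe sets were not among them.

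Levels were also compared between the replicates. An F test of the replicate number in the same fit called 15 of the 42 TRIM genes (35.7%) at an adjusted p under 0.05, beside 46.2% of named genes. Means of the replicates spanned between 0.413 and 1.6 log2 units in these 15, the narrowest being TRIM65, which lay below the dim reference. The span exceeded the size of the treatment change in 40 of the 42 TRIM genes (95.2%), near the share over all named genes (95.5%). The lowest mean was that of replicate 1 in 3 of the 15, replicate 2 in 4 and replicate 3 in 8. For all named genes called by the F test replicate 3 was lowest in 56.4%. Mean 3′ minus 5′ signal was 0.834, 0.765 and 1.89 in DMSO replicates 1, 2 and 3 and 0.999, 0.688 and 1.30 with T0901317, replicate 3 being the highest in both groups. The part of RNA quality, and of the other cell types above, in these differences was not tested.

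**Figure D4:**
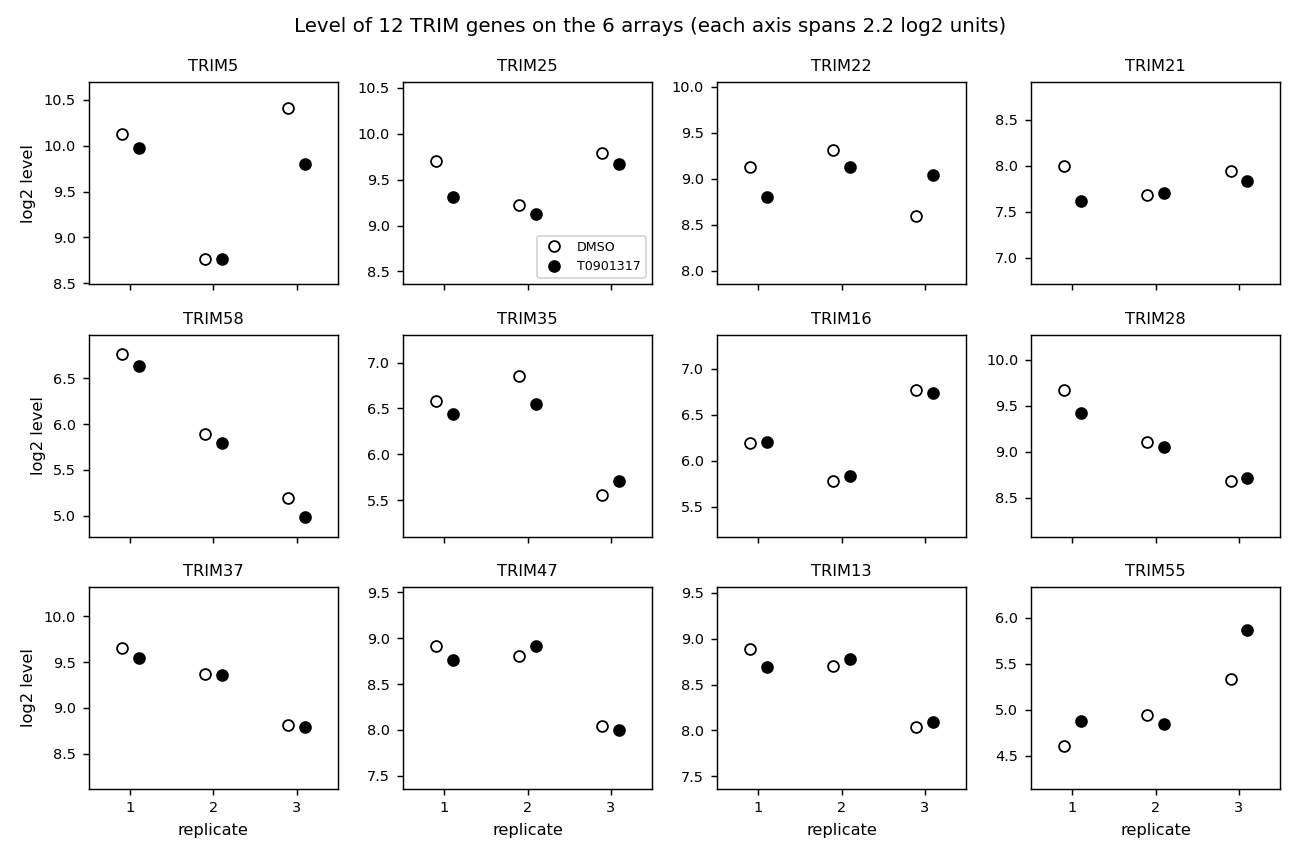
Log2 level of 12 TRIM genes in the 3 DMSO cultures (open) and the 3 T0901317 cultures (filled) by replicate, with axes of equal span. Cultures of 1 replicate sit near each other for TRIM58, TRIM16 and TRIM37. They lie further apart for others, such as TRIM22 (8.59 and 9.04) and TRIM5 (10.41 and 9.80) in replicate 3. By the mean of both cultures, replicate 2 is lowest for TRIM5, TRIM25, TRIM21 and TRIM16, and replicate 1 for TRIM55. Replicate 3 is lowest for TRIM22, TRIM58, TRIM35, TRIM28, TRIM37, TRIM47 and TRIM13.

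TRIM58 had the widest span, 1.6 log2 units or 3.04-fold and stood lowest in replicate 3 (limma F test, adjusted p = 2.79e-05). These results rest on 1 probe set per gene, and other probe sets did not always share the order. Replicate means of the other TRIM58 probe sets were 4.67, 3.82 and 3.29, in the same order, and 5.16, 5 and 5.55, with replicate 3 the highest. A second TRIM4 probe set was lowest in replicate 1 (7.2, 8.41 and 8.28), where the one that stood for it was lowest in replicate 2. TRIM5 spanned 1.34 units or 2.52-fold (adjusted p = 2.27e-05), with replicate 2 the lowest. TRIM35 spanned 1.07 units (adjusted p = 0.000533), from 6.58, 6.85 and 5.56 in DMSO and 6.44, 6.55 and 5.71 with T0901317. These 3 were the only members over 1 unit on the probe set that stood for each gene. The second TRIM4 probe set and a second TRIM25 probe set (9.1, 8.54 and 9.64) spanned over 1 unit too. TRIM28 was called too (adjusted p = 0.000407), as were TRIM16, TRIM37, TRIM47 and TRIM13. TRIM16 read 6.19, 5.78 and 6.77 in DMSO and 6.20, 5.83 and 6.74 with T0901317. TRIM25 was called with replicate 2 the lowest (adjusted p = 0.00625), and TRIM22 was not called (adjusted p = 0.134). The dimmest TRIM25 probe set was lowest in replicate 1 (5.92, 6.05 and 6.45), the others in replicate 2.

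The interferon-induced effectors, genes such as ISG15 and MX1 that carry out the antiviral state, are listed beside the TRIM genes. Of 20 listed 15 were measured, all 15 below 0, beside 58.6% of named genes, with a median of -0.49. ISG15, the ubiquitin-like modifier, read 11.89, 8.85 and 12.32 in DMSO and 11.14, 8.19 and 11.61 with T0901317, and fell by 0.71 ± 0.0706 (SE; limma, adjusted p = 0.002). MX1, a GTPase that traps viral particles, fell by 0.50 (adjusted p = 0.0333), IFIT1, which binds viral RNA, by 0.73 (adjusted p = 0.00908) and the nucleotide kinase CMPK2 by 0.76 (adjusted p = 0.0477). These 4 were the effectors that passed, and none did without the replicate block or without the mean-variance trend in limma. Without replicate 1, 2 passed, without replicate 2, 5 and without replicate 3, 11. Calls over all named genes numbered 16, 39 and 105 in these fits, beside 25 in the main fit. Named genes called numbered 0 without the block and 3 without the trend. The list was chosen with these falls known, so its direction is not independent evidence. In 14 of the 15 effectors replicate 2 was the lowest. That held for 5 of the 11 interferon-induced TRIM genes, among them TRIM5 and TRIM25. It also held for 12 of the 31 other TRIM genes and 4557 of the 14132 named genes. The median level of the effectors in DMSO was 10.9, 8.39 and 11.

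Around the TRIM ligases, the sensors and adaptors they act on (14 of 18 measured) gave no call. IFIH1, the RNA sensor MDA5, changed by -0.47 ± 0.103 (SE; limma, unadjusted p of 0.000716, adjusted p = 0.326), the sensor RIGI by -0.42 and the kinase TBK1 by -0.22. Among E2 enzymes (11 of 13) none passed. UBE2L6, the E2 enzyme for ISG15, changed by -0.28 (limma, unadjusted p of 0.00612, adjusted p = 0.996), UBE2D4 by -0.10 and UBE2E2 by -0.079. Ubiquitin and E1 genes (3 of 7) and interferon receptor signalling genes (7 of 14) gave no call either, with UBA7, the ISG15-activating enzyme, at -0.16, UBA1 at -0.066, UBA6 at -0.034, the inhibitor SOCS1 at 0.19, JAK2 at -0.16 and IFNAR2 at -0.12. Tripartite motif genes under other symbols (5 of 6) gave -0.19 for TRIML1, 0.16 for TRIML2 and -0.14 for MID1, with no call.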

How the data were processed

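The deposited values are log2 signals made by RMA, per the submitters' processing notes, whose version, array annotation and build are not given in the sources used here. They were used as deposited, without further normalization. Control probe sets (158) were left out and 52707 were tested. Names came from the platform's probe table: 24956 probe sets had 1 symbol, 361 several and 27390 none. limma 3.58.1 in R 4.3.3 fitted replicate number and treatment over all 6 arrays (eBayes with trend, Benjamini-Hochberg adjustment), with an F test for replicate number. It was tested on simulated data whose spread was drawn from the same fit, so that run does not test if this spread holds for the real arrays. Same-numbered cultures deviated together, with correlations of 0.658, 0.814 and 0.83, and the design text calls them paired. The named genes were those with the largest changes, levels, SDs or disagreeing probe sets, the interferon-induced and other groups, and from each pathway list the called genes or, with none, the 3 that moved most. Members and lists were chosen with earlier results of these data known, and the 12 genes of the plot of levels after their values were seen. No sequence is shown, because none was used here.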

Additional observations from a re-analysis of the deposited data

How the results depend on the processing

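No TRIM gene was called under any of the 13 alternatives run, and the lowest adjusted p was 0.356, for TRIM25 with the 3′ minus 5′ signal as a covariate. Without the replicate block, 0 TRIM genes and 0 named genes were called by limma. The median change of the family was -0.049 with arrays centred on their medians, -0.0075 after quantile normalization, -0.0068 after cyclic loess and -0.044 with the 3′ minus 5′ covariate, and -0.061 to 0.0047 with 1 replicate left out. That of the other members was -0.013 with the core interferon list and -0.026 to 0.021 with 1 replicate left out. The median of the interferon-induced members stayed between -0.14 and -0.05 and its difference from the others between -0.15 and -0.068. The number of interferon-induced members below 0 was 9 after quantile normalization or cyclic loess and 8 without replicate 1. The share of named genes below 0 was 53.5% after quantile normalization, 55.2% after cyclic loess and 50% without replicate 1. Among the members, 13 kept their sign under every alternative, and 25 changed sign at least once. The remaining 4 (TRIM9, TRIM59, TRIM60 and TRIM65) kept it under all but the filter on dim signal, which left them out. Leaving out the block or the trend, a robust eBayes or that filter cannot alter the fitted change of a probe set. The sign was therefore fixed in advance in those settings. Effectors called numbered 12 with the covariate, where 73 named genes were called, beside 4 effectors and 25 named genes in the main fit. They numbered 2 after quantile normalization or with all probe sets of a gene averaged, and 1 after cyclic loess. In each of these settings 15 named genes were called. Without the block or the trend 0 effectors were called, with 0 and 3 named genes. With 1 replicate left out 2 to 11 effectors were called, with 16 to 105 named genes. Signal near background limits 6 members.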
